A study of Mus musculus with 18 samples.

Results

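The data compared bulge hair follicle stem cells (HF-SCs) that still carried the Tomato reporter in DKO* mice with bulge HF-SCs of control (Co) mice, which together made up 6 of the 18 RNA-seq libraries of the study. DKO* mice carry floxed c-Jun and JunB alleles, a tamoxifen-activated Cre recombinase under the keratin 5 (K5) promoter and the mT/mG reporter, and they develop a psoriasis-like disease of the skin after tamoxifen. In mT/mG mice all cells make membrane Tomato until Cre switches a cell to membrane GFP, so the GFP+ cells of DKO* mice are called mutant and the Tomato+ (Tom) cells non-mutant. Mutants and controls of both sexes were 8 weeks old and received 4 daily injections of 2 mg tamoxifen, and the DKO* ears were taken on day 7. The HF-SC Tom libraries were CD49f-high, CD34+, Tomato+ cells from the ear epidermis of DKO* mice 814, 815 and 817. The HF-SC Co libraries were CD49f-high, CD34+ cells from mice 810, 825 and 828, which carry the same K5-driven Cre and reporter but keep 1 or both wild-type alleles of c-Jun and JunB. No GFP or Tom fraction is named for the control cells, so a difference between the Tom and GFP gates and a difference between the mice cannot be told apart in the Tom against Co comparison. Cells that never express K5 also keep Tomato, and CD34 is displayed by endothelial cells as well as by bulge cells. The paper lists CD31 and CD45 antibodies among stains whose use varied by experiment. It does not state whether CD31+ or CD45+ cells were gated out in these sorts. HF-SC GFP cells of the same 3 DKO* mice, and CD34- basal keratinocytes (b-KCs) of all 6 mice, served as further references.

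The bulge is the niche of the outer root sheath in which slowly cycling stem cells wait for the next hair cycle, and in mice these cells are known for Cd34, Krt15, Lgr5, Sox9 and Lhx2. c-Jun and JunB are subunits of the AP-1 transcription factor, which binds promoters of many epidermal differentiation and stress genes. In psoriasis-like skin, keratinocytes release alarmins and cytokines of the IL-1, IL-36 and IL-20 families, make stress keratins and divide more often, while dermal venules put out selectins that capture leukocytes. The question addressed here is which changes of the Tom cells were shared with epithelial cells of the same mice and which moved with genes of endothelial cells.

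All levels are FPKM (fragments scaled to transcript length and to the number of mapped reads). Values for Co libraries are given in the order of mice 810, 825 and 828, and those for Tom and GFP libraries in the order 814, 815 and 817. Fold changes are on the log2(FPKM + 1) scale with their SE, which understates changes of genes near 1 FPKM, and p-values are from limma with Benjamini-Hochberg adjustment over 12751 genes. A gene was called up- or down-regulated at an adjusted p under 0.01 with a log2 fold change of at least 1 in size. Counts of list members called against Co stand beside 9.77% of all genes up-regulated and 5.18% down-regulated. Tested genes reached 1 FPKM in 3 or more of the 18 libraries. A gene near 0 in Co could pass this filter only through libraries in which it was high. Shares of tested list members that rose, and list medians, are therefore in part set by the filter. In sorted bulk RNA, fewer cells of a type and less RNA per cell cannot be told apart.

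The targeted genes were first read in every library. Jun was at 308, 332 and 614 FPKM in the Tom libraries, at 835, 1028 and 1086 FPKM in Co and at 69.6, 88.4 and 30.4 FPKM in GFP. Junb stood at 251, 278 and 402 FPKM in Tom, 463, 436 and 443 FPKM in Co and 71.3, 77.5 and 38.6 FPKM in GFP. For both genes every Tom library lay below every Co library and above every GFP library. Against GFP both were up-regulated in Tom (Jun log2 fold change 2.77 ± 0.40, adjusted p = 1.7e-04, and Junb log2 fold change 2.33 ± 0.30, adjusted p = 5.9e-05), whereas against Co neither was called (Jun log2 fold change -1.30 ± 0.40, adjusted p = 0.015, and Junb log2 fold change -0.56 ± 0.30, adjusted p = 0.15). Of the 6 fits without 1 library, Jun passed the threshold against Co in that without Tom 817 (log2 fold change -1.61, adjusted p = 0.0052). With only the Tom and GFP libraries in the fit, the calls against GFP were lost (adjusted p = 0.021 for Jun and 0.014 for Junb).

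Bulge and basal markers were present in all 6 libraries, with 1 exception. Cd34, which the sort selects for, was at 259.6, 319 and 279.6 FPKM in Tom and 889, 639.8 and 680.2 FPKM in Co, against means of 1.69 and 1.45 FPKM in b-KC Tom and b-KC Co. Krt5 was at 2793, 2652 and 3009.8 FPKM in Tom and 3163, 3369.9 and 3902 FPKM in Co. Krt15 was at 11261, 11764 and 0 FPKM in Co and 2848, 3342 and 5841 FPKM in Tom, and it was the 1 gene listed at 0 in Co 828 with over 10 FPKM in both other Co libraries. The log2 fold change of Krt15 turned from 2.90 to -1.59 without Co 828 and passed no threshold in either case. The files give no read totals, but the steps of their low values imply about 16380000 to 26280000 reads per library, at which 3 reads on a transcript of 1 kb correspond to 0.114 to 0.183 FPKM. The library Tom 817 stood apart. It differed from Tom 814 by more than 2-fold in 2247 genes and from Tom 815 in 1196, while Tom 814 and 815 differed in 93 and pairs of Co libraries in 95 to 252.

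In Tom cells 1246 of 12751 genes (9.77%) were up-regulated and 660 (5.18%) down-regulated against Co. The libraries of the 2 groups did not overlap in 1229 of the 1246 and 654 of the 660, against 3109 (24.4%) higher and 3138 (24.6%) lower over all genes. The largest rises were in S100a9, S100a8, BC100530, Sprr2d, Il19, Stfa1, Krt6b, Lcn2, 2610528A11Rik and Stfa3. The largest falls were in 6330403K07Rik, Cck, Lce1m, Grem1, Chat, Cryab, Krt77, Ackr4, Krt24 and Myl9. Against GFP cells of the same mice, 427 genes (3.35%) were higher and 62 (0.486%) lower in Tom, and 12262 (96.2%) were not called. These counts moved with the fit: 77 were higher and 9 lower with only the Tom and GFP libraries in it, 472 and 131 with mouse as a replicate block, and 259 to 521 and 23 to 177 without 1 library. With only the Tom and GFP libraries in the fit, 23 of the calls against GFP of the genes named by rule were lost and 10 were kept. Of the 1246 up-regulated genes, 353 (28.3%) were also higher than in GFP, 16 (1.28%) were lower than in GFP and 877 were neither. Both comparisons use the same 3 Tom libraries, so this split describes the genes and is no independent test. With only the Tom and Co libraries in the fit, 17 calls against Co of the named genes were lost (adjusted p = 0.012 to 0.068), those of Egfr, Cspg4, Tbx1, Sox9, Dsg1a, Hpgd, Cxcl12, Il1rl2, Ptgs2, Tagln, Sqle, Tgfa, Gbp3, Mmp3, Il6, Lyve1 and Tm4sf1.

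**Figure D1:**
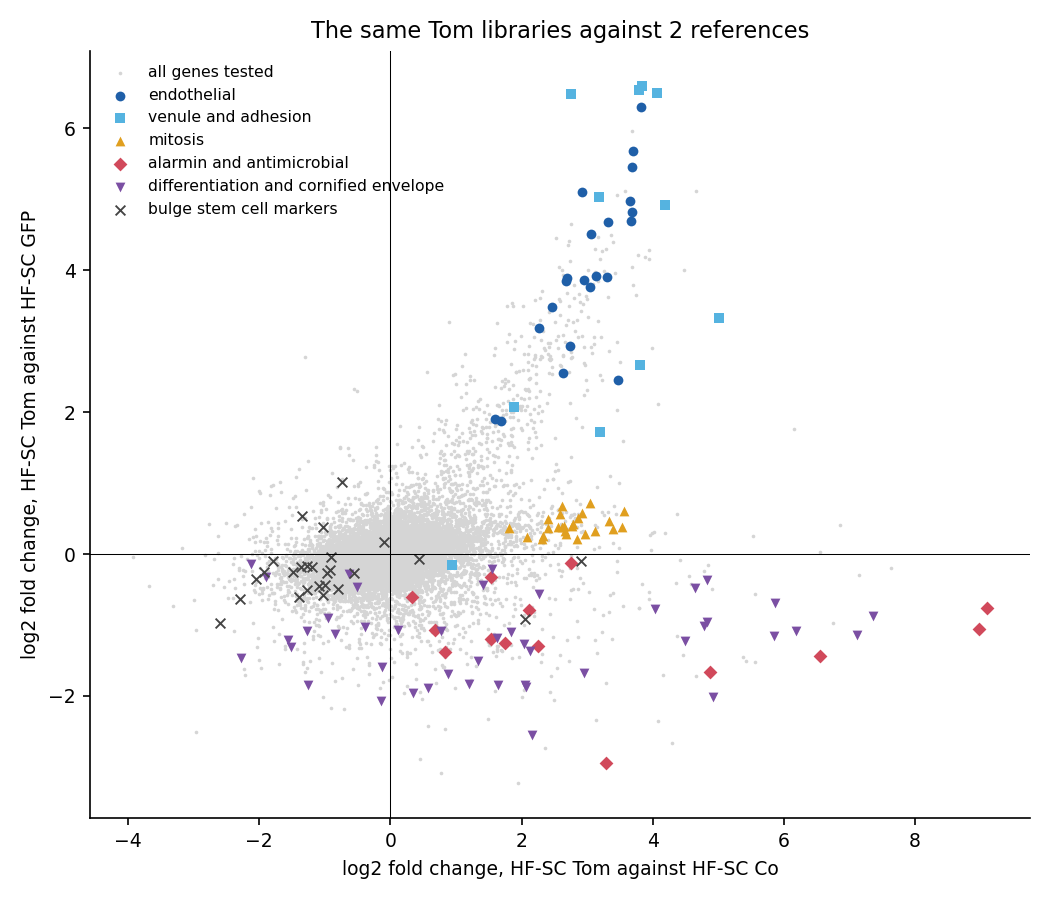
Each point is 1 of the 12751 genes tested, with its log2 fold change of HF-SC Tom against HF-SC Co on the x axis and against HF-SC GFP on the y axis, both on log2(FPKM + 1), and colours mark 6 gene lists. Endothelial genes and all but 1 of the venule genes, Ch25h, lie well above 0 on both axes, whereas mitosis genes lie to the right near 0 on the y axis. The alarmin and differentiation lists have medians above 0 on the x axis and below 0 on the y axis (-1.13 and -1.14). Differentiation genes spread on both sides of 0 on the x axis. Of 14 alarmin and 45 differentiation genes, 1 and 0 were called lower in Tom than in GFP.

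Genes for alarmins and antimicrobial proteins were up-regulated in Tom cells, led by the calcium-binding pair that forms calprotectin. Of 17 listed genes, 14 passed the filter on low levels. Of these, 8 were up-regulated and none down-regulated, beside 9.77% and 5.18% of all genes. Their median log2 fold change was 2.18, beside -0.04 over all genes. S100a9 (chr3:90496554-90499643, minus strand, NCBI37) was at 10.5, 1.84 and 25.5 FPKM in Co and 10477, 4962 and 2723 FPKM in Tom (log2 fold change 9.10 ± 0.95, adjusted p = 2.4e-06). Its partner S100a8 rose from 30.2, 2.87 and 49.2 to 22949, 8262 and 4063 FPKM (log2 fold change 8.97 ± 1.06, adjusted p = 8.2e-06). Every Tom library lay far above every Co library for both, and the spread within Tom was wide, with the highest level in mouse 814 and the lowest in 817. The GFP libraries overlapped with Tom, at 14692, 8404 and 5545 FPKM for S100a9 (adjusted p = 0.72 for Tom against GFP). Without Co 825 the log2 fold change of S100a9 was 8.22, without Co 828 it was 9.84, and that of S100a8 was 7.86 and 9.70, respectively. The S100a8 value was also 8.31 without Tom 814 and 9.56 without Tom 817.

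Lcn2, an iron-sequestering lipocalin, was at 1.03, 0.502 and 1.15 FPKM in Co and 305, 187 and 92.8 FPKM in Tom (log2 fold change 6.55 ± 0.58, adjusted p = 4.9e-07). The defensin gene Defb3 was listed at 0, 0 and 0.127 FPKM in Co and 67.6, 31.8 and 11.8 FPKM in Tom (log2 fold change 4.88 ± 0.76, adjusted p = 1.0e-04), and its log2 fold change was 5.51 without Tom 817. Both were again lowest in Tom 817 and neither was called against GFP. Slpi, an inhibitor of neutrophil elastase, behaved otherwise. It rose from 1.0, 1.96 and 1.08 FPKM in Co to 20, 16.5 and 30.5 FPKM in Tom (log2 fold change 3.29 ± 0.42, adjusted p = 1.6e-05) but was at 215, 250.2 and 97.9 FPKM in GFP, so that all GFP libraries lay above all Tom libraries (log2 fold change -2.95 ± 0.42, adjusted p = 1.5e-04 for Tom against GFP), a call lost with only the Tom and GFP libraries in the fit (adjusted p = 0.013). The count of 8 fell to 5 when any 1 of Co 810, 825, 828, Tom 814 and Tom 815 was left out, and was 11 without all libraries of mouse 817.

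Among 7 tested genes of the IL-20 subfamily, 2 ligands rose (beside 9.77% of all genes) and no receptor subunit did. Il19 (chr1:132829235-132836650, minus strand, NCBI37), a cytokine that acts on keratinocytes through the type I IL-20 receptor, was at 0.286, 0 and 0.321 FPKM in Co, 199, 104 and 228 FPKM in Tom and 216, 158 and 257 FPKM in GFP. Tom libraries overlapped with GFP (adjusted p = 0.67) and lay far above Co (log2 fold change 7.14 ± 0.33, adjusted p = 1.7e-09), and mouse 817, which was lowest for S100a8, S100a9, Lcn2 and Defb3, was highest for Il19. Il24 was at 0.262, 0 and 0.0368 FPKM in Co and 5.63, 3.61 and 25.9 FPKM in Tom (log2 fold change 3.10 ± 0.53, adjusted p = 2.5e-04), with the same order of mice in which 817 was highest, and its log2 fold change was 2.34 without Tom 817. Il20 was listed at 0 in all Co libraries, at 0.147, 0.277 and 0.141 FPKM in Tom and at 1.69, 4.77 and 1.23 FPKM in GFP, where it was higher by the test (log2 fold change -1.46 ± 0.28, adjusted p = 0.0024 for Tom against GFP). The call for Il20 against GFP was lost without Tom 814 or Tom 815 (adjusted p = 0.016 and 0.011) and with only the Tom and GFP libraries in the fit (0.082). The receptor genes Il20ra, Il20rb, Il22ra1 and Il10rb had log2 fold changes of 0.69, -0.59, -0.56 and 0.71 and were not called.

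Of 13 tested genes of the IL-1 and IL-36 family, 6 were up-regulated, beside 9.77% of all genes, and none down-regulated (median log2 fold change 1.41). Il1f9, which encodes IL-36γ, went from 2.52, 3.74 and 3.16 FPKM in Co to 83.5, 65.9 and 43 FPKM in Tom (log2 fold change 3.94 ± 0.47, adjusted p = 7.9e-06). Il1b was at 0, 0.121 and 0.124 FPKM in Co and 5.88, 5.05 and 9.94 FPKM in Tom (log2 fold change 2.83 ± 0.45, adjusted p = 1.2e-04). The receptor antagonist Il1rn was at 9.1, 14.4 and 8.74 FPKM in Co and 65, 52.1 and 52 FPKM in Tom (log2 fold change 2.31 ± 0.38, adjusted p = 1.6e-04). In these 3 genes the Tom and Co libraries did not overlap. Il1b was at 3.95, 2.15 and 19 FPKM in GFP (adjusted p = 0.87 for Tom against GFP) and was highest in mouse 817 in both Tom and GFP. The leukocyte genes Ptprc, Laptm5, Itgb2 and Csf1r, all below the filter on low levels, were also highest in 817 in both groups. Cd74 was highest in 815 in both. Other leukocyte genes, such as Cd14 and Retnlg, were highest in 814 in Tom. Whether leukocyte RNA supplied the Il1b values was not tested. The receptors Il1r1 (log2 fold change 1.41 ± 0.21, adjusted p = 5.9e-05) and Il1rl2 (log2 fold change 1.04 ± 0.24, adjusted p = 0.0023), the latter of which binds IL-36, also rose, although Il1rl2 fell below the fold threshold without Co 810 (log2 fold change 0.80) or Tom 817 (0.81). Il1r1 was at 26, 27.1 and 14.7 FPKM in Tom and 11.1, 11.6 and 11.8 FPKM in GFP, above GFP without overlap but not called (adjusted p = 0.013). It did not rise in b-KC Tom against b-KC Co (log2 fold change -0.45 ± 0.21). Its change in HF-SCs was larger than that in b-KCs by 1.85 ± 0.29 (adjusted p = 5.1e-04). The IL-36 ligand genes Il1f6 and Il1f8 varied within Tom, at 9.52, 9.05 and 4.48 FPKM and 13.3, 11.4 and 1.67 FPKM with the lowest level in 817, and were not called (adjusted p = 0.014 and adjusted p = 0.094). Both passed without all libraries of mouse 817 (adjusted p = 5.4e-09 and 1.3e-07), and Il1f6 also passed with mouse as a replicate block (0.0042). Il18, Il1f5, Il1r2, Il1rap and Il33 had log2 fold changes between 0.44 and 0.93 and were not called.

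Il1a and Tslp marked a difference between Tom and GFP cells of the same mice. Il1a, an alarmin cytokine released by damaged keratinocytes, was at 0.963, 0.922 and 0.603 FPKM in Co, 6.12, 5.59 and 6.46 FPKM in Tom and 78.7, 89.8 and 38.8 FPKM in GFP. Tslp, a cytokine that epithelial cells send to dendritic cells and T cells, was at 1.93, 1.65 and 1.81 FPKM in Co, 27.8, 17.1 and 27.7 FPKM in Tom and 133, 131 and 109 FPKM in GFP. For both genes the 3 groups were fully separated, with Tom between Co and GFP. Tom was above Co (Il1a log2 fold change 1.95 ± 0.36, adjusted p = 5.0e-04, and Tslp log2 fold change 3.14 ± 0.25, adjusted p = 1.5e-07) and below GFP (Il1a log2 fold change -3.23 ± 0.36, adjusted p = 1.5e-05, and Tslp log2 fold change -2.34 ± 0.25, adjusted p = 8.1e-06). These were 2 of the 16 genes in that position, and the chemokine gene Ccl20, Slpi and the lipoxygenase gene Alox8 were among the others.

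Of 10 tested genes for other cytokines, 6 rose, beside 9.77% of all genes. Tnf was at 0.502, 0.194 and 0.372 FPKM in Co and 4.21, 5.29 and 4.22 FPKM in Tom (log2 fold change 2.04 ± 0.27, adjusted p = 2.6e-05). Csf1, a growth factor of macrophages, was at 3.59, 3.59 and 3.78 FPKM in Co and 15.4, 17.8 and 12.1 FPKM in Tom (log2 fold change 1.78 ± 0.15, adjusted p = 3.4e-07). In GFP Csf1 was at 8.75, 11 and 7.72 FPKM, below every Tom library but not called (adjusted p = 0.011). It did not rise in b-KC Tom against b-KC Co (log2 fold change -0.05 ± 0.15). Its change in HF-SCs was larger than that in b-KCs by 1.83 ± 0.22 (adjusted p = 5.9e-05). Osm was listed at 0 in all Co libraries and at 1.27, 0.698 and 1.73 FPKM in Tom (adjusted p = 0.0066), and its call was lost without any 1 of the Co libraries (adjusted p = 0.019 to 0.021). Csf3 and Il6, the other 2 besides Tslp, are given with the endothelial genes because they were the cytokine genes called higher in Tom than in GFP. Genes of other lists so called, Plaur, Il6st, Ptgs1 and Gbp3 among them, are given with their lists. They too belong to the 353 genes higher in Tom than in both Co and GFP. Il23a, Il17c, Lif and Il12b were not called, with adjusted p = 0.018, adjusted p = 0.38, adjusted p = 1.0e-04 and adjusted p = 0.97, and Lif missed the fold threshold only (log2 fold change 0.90, and 1.03 without Tom 814). Il23a was at 2.49, 2.04 and 1.71 FPKM in Tom against 0.144, 0 and 0.151 FPKM in Co, and it passed without all libraries of mouse 817 (adjusted p = 1.1e-06) and with mouse as a replicate block (0.0078).

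Chemokine genes moved in both directions. Of 18 tested, 8 were up-regulated and 3 down-regulated, beside 9.77% and 5.18% of all genes. The rises were led by ligands of the neutrophil receptor CXCR2. Cxcl1 was at 21.3, 8.63 and 11.2 FPKM in Co and 416, 397 and 139 FPKM in Tom (log2 fold change 4.37 ± 0.41, adjusted p = 7.6e-07), and Cxcl2 at 0.36, 0.593 and 0.379 and 21.9, 19.7 and 15.6 FPKM (log2 fold change 3.79 ± 0.18, adjusted p = 1.7e-09). Cxcl3 was at 0.192, 0 and 0 FPKM in Co and 15.6, 9.08 and 39.8 FPKM in Tom (log2 fold change 4.16 ± 0.49, adjusted p = 7.1e-06). In all 3 the groups did not overlap, and Tom 817 was lowest for Cxcl1 and Cxcl2 but highest for Cxcl3. Cxcl5 also rose (log2 fold change 3.23 ± 0.79, adjusted p = 0.0038), but its call was lost without any 1 of Co 810, 825, 828 and Tom 814 (adjusted p = 0.012 to 0.023). Ccl20, which draws in cells with the receptor CCR6, was at 9.38, 5.89 and 10.8 FPKM in Co, 53.5, 74 and 57.6 FPKM in Tom and 194, 193 and 145 FPKM in GFP, above Co (log2 fold change 2.72 ± 0.29, adjusted p = 2.5e-06) and below GFP (log2 fold change -1.51 ± 0.29, adjusted p = 0.0023). The call of Ccl20 against GFP was lost without GFP 814, GFP 815 or Tom 814 (adjusted p = 0.013 to 0.019) and with only the Tom and GFP libraries in the fit (0.013).

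The 3 chemokines that fell include Cxcl14 and Ccl27a, which resting epidermis makes. Cxcl14 was at 1224, 907 and 1013 FPKM in Co and 170.0, 242 and 257 FPKM in Tom (log2 fold change -2.24 ± 0.44, adjusted p = 7.5e-04). Ccl27a was at 139, 148 and 205 and 46.3, 48.7 and 23.6 FPKM (log2 fold change -2.07 ± 0.35, adjusted p = 2.0e-04), and Cxcl12 at 38.5, 34.1 and 38.7 and 14.5, 21.2 and 7.14 FPKM (log2 fold change -1.43 ± 0.33, adjusted p = 0.0025). All Tom libraries were below all Co libraries in the 3 genes, none was called against GFP, and Cxcl12 lost its call without Co 828 (adjusted p = 0.011). The counts of up-regulated chemokines ranged from 4 without Tom 814 to 10 without Tom 817, and fell to 5 without Co 810 or Co 825.

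Keratins and envelope proteins of stressed epidermis rose in Tom cells. Of 5 stress keratins, Krt6b and Krt16 were up-regulated, Krt6a and Krt17 were not called, and Krt75, a keratin of the companion layer of the follicle, fell. Krt6b was at 1.22, 0.263 and 1.45 FPKM in Co and 239.9, 170.3 and 207 FPKM in Tom (log2 fold change 6.75 ± 0.76, adjusted p = 5.1e-06), and Krt16 was at 13.5, 8.86 and 7.4 FPKM in Co and 558, 571 and 372 FPKM in Tom (log2 fold change 5.53 ± 0.74, adjusted p = 2.5e-05). Krt75 was at 6.43, 8.11 and 6.83 FPKM in Co, 1.63, 1.39 and 1.08 FPKM in Tom and 5.21, 5.27 and 3.26 FPKM in GFP, with Tom below both (against Co log2 fold change -1.78 ± 0.16, adjusted p = 6.1e-07, against GFP log2 fold change -1.22 ± 0.16, adjusted p = 7.9e-05), and the call against GFP was lost with only the Tom and GFP libraries in the fit (adjusted p = 0.026). Of 45 tested genes of terminal differentiation and the cornified envelope, 17 were up-regulated and 2 down-regulated (median log2 fold change 1.56). Over all genes these shares were 9.77% and 5.18%. The 17 were mainly small proline-rich envelope proteins and stefins. Sprr2d was at 0.644, 1.65 and 1.93 FPKM in Co and 448, 345 and 365 FPKM in Tom (log2 fold change 7.36 ± 0.75, adjusted p = 2.0e-06), Sprr2e at 0, 1.99 and 0.444 and 94.7, 84.2 and 99.9 FPKM, and Sprr2f at 0.16, 0.352 and 0.27 and 86.6, 69.5 and 63.2 FPKM. Stfa1, a cysteine protease inhibitor, was at 1.75, 0.256 and 2.06 FPKM in Co and 819, 211 and 160.2 FPKM in Tom (log2 fold change 7.11 ± 0.71, adjusted p = 1.6e-06), and its neighbour BC100530 was at 3.65, 1.7 and 5.4 FPKM in Co and 2248, 813 and 343 FPKM in Tom (log2 fold change 7.63 ± 0.71, adjusted p = 7.6e-07). These 3 Sprr2 genes were even across the 3 Tom libraries, whereas Stfa1 and BC100530 were highest in 814 and lowest in 817. Without Tom 814 the log2 fold changes of Stfa1, Stfa3 and BC100530 were 6.4, 5.34 and 6.94, and without Tom 817 those of Stfa3 and BC100530 were 7.04 and 8.29. Reads could map to up to 20 places, so values of single members of the Sprr2, stefin and Krt6 families are uncertain.

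Not all differentiation genes rose. Tgm5, an epidermal transglutaminase, was at 804, 804 and 616 FPKM in Co and 133, 179 and 315 FPKM in Tom (log2 fold change -1.90 ± 0.43, adjusted p = 0.0022), and the desmosomal cadherin gene Dsg1a was at 46.5, 84.7 and 63.2 and 15, 22.8 and 47.2 FPKM (log2 fold change -1.28 ± 0.34, adjusted p = 0.007). Tom 817 overlapped with Co for Dsg1a. Both calls were lost without Tom 814 (adjusted p = 0.014 and 0.044), and that of Dsg1a also without Co 825, Co 828 or Tom 815 (0.038, 0.022 and 0.027). The envelope gene Lce1m was at 12.3, 17.3 and 6.36 FPKM in Co and 0.551, 0.0434 and 0.133 FPKM in Tom (log2 fold change -3.31 ± 0.53, adjusted p = 1.3e-04). Krt77, a type II keratin, was at 7.77, 12.9 and 14.5 FPKM in Co, 0.246, 0.974 and 0.632 FPKM in Tom and 20.3, 8.34 and 2.77 FPKM in GFP, so that Tom lay below both (against GFP log2 fold change -2.51 ± 0.48, adjusted p = 0.0024). That call against GFP was lost without GFP 814, GFP 815 or Tom 814 (adjusted p = 0.011 to 0.020) and with only the Tom and GFP libraries in the fit (0.075). The count of down-regulated members was 0 without Tom 814 and 6 without all libraries of mouse 817, when 26 were up-regulated.

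Promoters of 2 envelope genes are printed because these genes were among the most strongly raised of the list and the AP-1 subunits c-Jun and JunB are the proteins deleted in the mutant cells. Each window runs from 250 bases before to 50 after the start of the gene in the RefSeq annotation of GRCm38.p6, 5′ to 3′ on the strand of the gene. Capitals mark the AP-1 letters TGAGTCA and the letters CCAAT, each searched on both strands and without overlap with each other here, so that ATTGG is CCAAT on the other strand.
Sprr2d, chr3:92338890-92339189, plus strand: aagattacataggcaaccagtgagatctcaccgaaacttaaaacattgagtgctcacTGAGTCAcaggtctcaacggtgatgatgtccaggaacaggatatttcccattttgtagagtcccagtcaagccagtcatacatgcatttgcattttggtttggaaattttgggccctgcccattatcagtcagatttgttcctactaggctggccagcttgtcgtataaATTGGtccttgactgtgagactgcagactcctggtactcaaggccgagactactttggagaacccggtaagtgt
Sprr2e, chr3:92351893-92352192, plus strand: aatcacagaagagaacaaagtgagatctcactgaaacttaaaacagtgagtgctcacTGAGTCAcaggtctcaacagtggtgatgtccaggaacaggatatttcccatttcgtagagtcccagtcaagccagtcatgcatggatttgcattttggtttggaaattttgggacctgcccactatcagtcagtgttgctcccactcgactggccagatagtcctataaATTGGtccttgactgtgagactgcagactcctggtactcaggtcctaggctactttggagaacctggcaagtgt
The windows of Sprr2d and Sprr2e were identical at 264 of 300 bases (88.0%) and each held 1 match of either motif, at the same positions. Of the 40 differentiation genes with a window, 12 (30.0%) held TGAGTCA, against 5.95% of 27025 genes with a window and 4.86% of the 9490 tested genes with one. Among the up-regulated genes not higher than GFP the share was 9.30% of 645, among the down-regulated genes it was 5.41% of 481, among those also higher than GFP it was 10.2% of 236, and none of the 9 alarmin genes with a window held it. A match of letters is a description and shows no binding.

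Growth factor, protease and signalling genes rose in part. Of 8 tested genes of the EGF receptor system, 4 ligand genes rose, beside 9.77% of all genes. Areg was at 2.68, 1.43 and 1.64 FPKM in Co and 14.8, 15.1 and 19.2 FPKM in Tom (log2 fold change 2.59 ± 0.40, adjusted p = 9.6e-05), and Epgn at 6.21, 3.99 and 3.71 and 33.3, 29.3 and 33.1 FPKM (log2 fold change 2.57 ± 0.19, adjusted p = 7.1e-08). Hbegf and Tgfa rose less, by 1.13 ± 0.16 and 1.58 ± 0.35 on the log2 scale, and fell below the fold threshold without Co 828 (0.97) and without Tom 817 (0.96), respectively. The receptor gene Egfr itself was lower, at 24.1, 31.7 and 52.1 FPKM in Tom and 59.5, 76.6 and 77.1 FPKM in Co (log2 fold change -1.02 ± 0.28, adjusted p = 0.0077), a call that was lost without any 1 of Co 810, 825, 828, Tom 814 and Tom 815 (adjusted p = 0.011 to 0.047). Ligands rose in Tom without overlap with Co, and the receptor was lower without overlap.

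Of 13 tested protease and matrix genes, 7 rose, beside 9.77% of all genes. The collagenase gene Mmp13 was at 0.182, 0.38 and 0.199 FPKM in Co and 32.8, 10.3 and 54.3 FPKM in Tom (log2 fold change 4.46 ± 0.49, adjusted p = 3.9e-06), and its log2 fold change was 5.11 without Tom 815. The gelatinase gene Mmp9 was at 0.154, 0.0506 and 0 FPKM in Co and 9.47, 10.7 and 38.4 FPKM in Tom (log2 fold change 3.98 ± 0.59, adjusted p = 6.5e-05). Mmp3 was at 9.13, 16.7 and 8.53 FPKM in Co and 46.5, 32.8 and 243 FPKM in Tom (log2 fold change 2.61 ± 0.64, adjusted p = 0.0039). All 3 were highest in Tom 817. Without Tom 817 the log2 fold change of Mmp9 was 3.37 and that of Mmp3 was 1.74, and Mmp3 lost its call without Tom 817, Co 810 or Co 828 (adjusted p = 0.013, 0.016 and 0.019). The urokinase receptor gene Plaur was at 1.5, 2.84 and 0.823 FPKM in Co, 16.3, 21.5 and 15.4 FPKM in Tom and 2.7, 3.97 and 5.48 FPKM in GFP, above both (log2 fold change 2.84 ± 0.29, adjusted p = 2.2e-06, and against GFP log2 fold change 1.92 ± 0.29, adjusted p = 3.3e-04), and its call against GFP was lost with only the Tom and GFP libraries in the fit (adjusted p = 0.012).

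Of 20 tested genes of STAT3 and NF-kB feedback, 6 rose and none fell, beside 9.77% and 5.18% of all genes. Bcl3, a nuclear partner of NF-kB, was at 2.37, 2.01 and 1.14 FPKM in Co, 24.1, 31.1 and 30.6 FPKM in Tom and 25.3, 26.7 and 24.4 FPKM in GFP (log2 fold change 3.40 ± 0.18, adjusted p = 6.8e-09). Tnfaip2 was at 0.205, 0.525 and 0.264 FPKM in Co and 30.1, 23.9 and 39.7 FPKM in Tom (log2 fold change 4.58 ± 0.48, adjusted p = 2.4e-06), while Tnfaip3, the feedback inhibitor A20, rose by 1.74 ± 0.21 and Nfkb2 by 1.23 ± 0.13. Neither Bcl3 nor Tnfaip2 overlapped with Co, and none of the 4 was called against GFP. The gp130 receptor gene Il6st was at 20.5, 34.4 and 24.9 FPKM in Co, 107, 148 and 75.5 FPKM in Tom and 19.5, 26.8 and 30.9 FPKM in GFP, higher in Tom than in both (log2 fold change 1.99 ± 0.30, adjusted p = 7.9e-05, and against GFP log2 fold change 2.03 ± 0.30, adjusted p = 2.4e-04). Of 10 enzymes of arachidonic acid metabolism, the cyclooxygenase genes Ptgs1 (log2 fold change 1.81 ± 0.22, adjusted p = 1.2e-05) and Ptgs2 (log2 fold change 1.31 ± 0.33, adjusted p = 0.0049) and the prostaglandin E synthase gene Ptges (log2 fold change 1.55 ± 0.18, adjusted p = 5.7e-06) rose. Hpgd, which breaks prostaglandins down, fell (log2 fold change -1.29 ± 0.28, adjusted p = 0.0016). Ptgs2 was at 19.6, 22.7 and 56.6 FPKM in Tom and lost its call without any 1 of the Co libraries (adjusted p = 0.012 to 0.021) or Tom 817 (0.016), and Hpgd lost its call without Co 828 (0.012). Of these 4, Ptgs1 was also called higher than in GFP (log2 fold change 1.54 ± 0.22, adjusted p = 1.9e-04). The calls of Il6st and Ptgs1 against GFP were lost with only the Tom and GFP libraries in the fit (adjusted p = 0.015 and 0.028).

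Cell division genes rose together. All 25 mitosis genes were up-regulated in Tom against Co, beside 9.77% of all genes, and none overlapped, beside 24.4% of all genes higher without overlap. None was called between Tom and GFP, beside 96.2% of all genes without a call in that comparison. The median log2 fold change was 2.67, from 1.81 in Cenpf to 3.56 in Birc5. The summed level of the 25 genes was 78.3 to 98.3 FPKM in Co, 761 to 855 FPKM in Tom and 481 to 772 FPKM in GFP. Cdc20, which switches on the anaphase-promoting complex, was at 6.37, 5.13 and 6.72 FPKM in Co and 77.1, 64.5 and 77 FPKM in Tom (log2 fold change 3.39 ± 0.22, adjusted p = 2.0e-08). The cyclin gene Ccnb1 was at 8.46, 6.68 and 8.84 FPKM in Co and 112, 104 and 93.2 FPKM in Tom (log2 fold change 3.53 ± 0.18, adjusted p = 2.8e-09), and Ccnb2 at 3.42, 2.47 and 3.67 and 39.7, 40.9 and 41.4 FPKM (log2 fold change 3.33 ± 0.23, adjusted p = 3.3e-08). Birc5, a subunit of the chromosomal passenger complex, was at 4.95, 3.01 and 5.49 FPKM in Co and 84.1, 58.8 and 49.4 FPKM in Tom (log2 fold change 3.56 ± 0.32, adjusted p = 5.3e-07). The summed level of Tom 817 was thus close to that of Tom 814 and 815, and all 25 calls held without any 1 of the Co or Tom libraries.

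Genes of DNA replication rose less. Of 24 tested, 16 were up-regulated, beside 9.77% of all genes, and none down-regulated (median log2 fold change 1.29). The geminin gene Gmnn was at 6.19, 3.51 and 6.93 FPKM in Co and 47.6, 40.1 and 25.4 FPKM in Tom (log2 fold change 2.56 ± 0.34, adjusted p = 2.1e-05), and the ribonucleotide reductase gene Rrm2 at 21.9, 11.5 and 15.4 and 68, 74.2 and 107 FPKM (log2 fold change 2.30 ± 0.21, adjusted p = 5.6e-07). The helicase genes Mcm5 (2.23 ± 0.18) and Mcm10 (2.30 ± 0.15) and the maintenance methylation factor gene Uhrf1 (2.14 ± 0.20) rose on the log2 scale by similar amounts. Groups did not overlap in these 5 genes, and none of the 24 was called against GFP, beside 96.2% of all genes without a call.

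The promoters of Cdc20 and Ccnb2 are printed because the mitosis genes moved together. Capitals mark TTTGAA, the core letters of the cell cycle homology region (CHR) through which the DREAM complex is known to act, and CCAAT, the letters bound by NF-Y, on the same kind of window. The motifs were searched on both strands and did not overlap each other in these windows.
Cdc20, chr4:118437294-118437593, minus strand: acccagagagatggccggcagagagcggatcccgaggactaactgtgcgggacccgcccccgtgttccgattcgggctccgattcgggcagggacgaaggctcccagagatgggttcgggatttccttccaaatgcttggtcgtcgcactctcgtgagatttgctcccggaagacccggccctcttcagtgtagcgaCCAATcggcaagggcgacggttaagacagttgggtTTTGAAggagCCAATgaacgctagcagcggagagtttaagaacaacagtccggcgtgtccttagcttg
Ccnb2, chr9:70421505-70421804, minus strand: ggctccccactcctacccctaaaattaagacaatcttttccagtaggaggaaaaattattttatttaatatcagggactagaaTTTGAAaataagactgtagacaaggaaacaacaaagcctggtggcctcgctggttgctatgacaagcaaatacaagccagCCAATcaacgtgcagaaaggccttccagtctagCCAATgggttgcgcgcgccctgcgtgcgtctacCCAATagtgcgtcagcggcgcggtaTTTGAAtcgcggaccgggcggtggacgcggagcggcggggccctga
Cdc20 held 1 CHR and 2 CCAAT matches, and Ccnb2 held 2 CHR and 3 CCAAT matches. Of the 21 mitosis genes with a window, 15 (71.4%) held TTTGAA and 19 (90.5%) held CCAAT, against 20.2% and 41.1% of all 27025 genes and 14.1% and 42.7% of the 9490 tested genes with a window. No mitosis promoter held the AP-1 letters. The other 2 of 5 motifs searched were TTCNNNGAA (STAT) and GGAAGT (ETS), which 9.55% and 26.5% of all genes and 8.46% and 31.7% of the tested genes held, and which 0 and 5 of the 21 mitosis genes held.

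**Figure D2:**
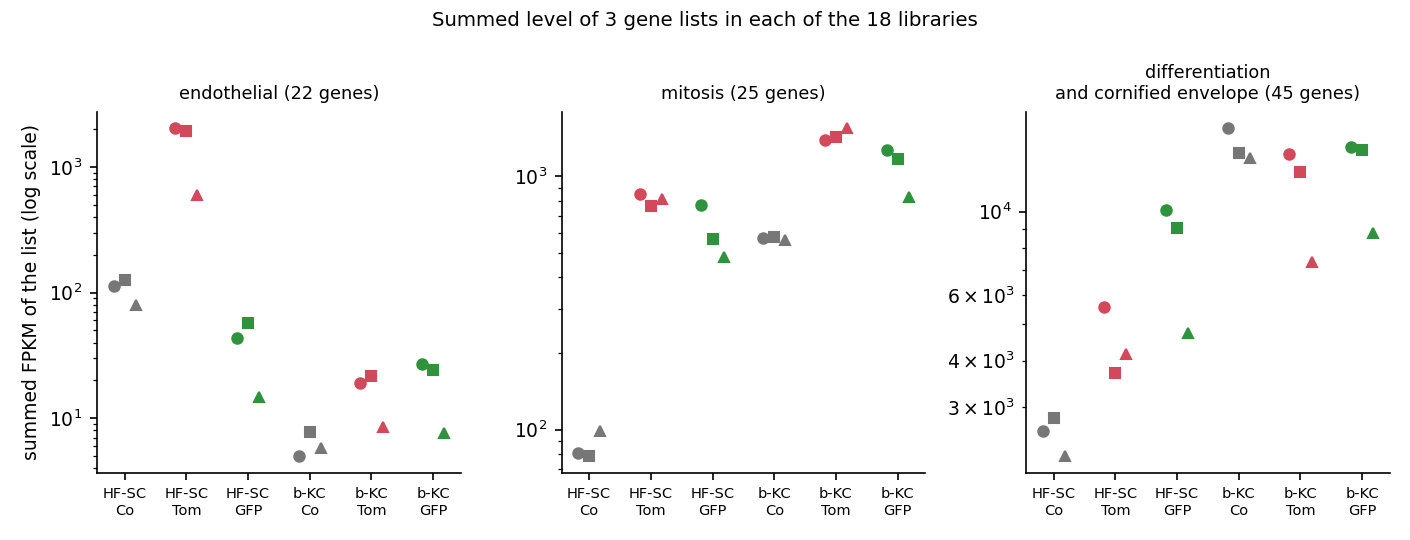
Summed FPKM of the tested members of 3 gene lists on a log axis in each of the 18 libraries, by group, with circles for mice 810 and 814, squares for 825 and 815 and triangles for 828 and 817. The 3 Tom libraries of the HF-SCs stand together for mitosis, whereas in the endothelial panel mouse 817 (601 FPKM) lies below 814 and 815 (2041 and 1946 FPKM) and above all other groups.

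Of 18 tested genes of glucose uptake and glycolysis, 12 rose, beside 9.77% of all genes, and none fell by the call rule (median log2 fold change 1.37). Of the 6 that were not called, the glucose transporter gene Slc2a3 had all Tom libraries below all Co libraries (log2 fold change -0.47 ± 0.15, adjusted p = 0.017, a gene named after its values were seen). The lactate exporter gene Slc16a3 was at 0.433, 0.494 and 0.414 FPKM in Co and 34.7, 20.7 and 49.8 FPKM in Tom (log2 fold change 4.56 ± 0.48, adjusted p = 2.5e-06), and the monocarboxylate transporter gene Slc16a1 at 5.5, 6.54 and 5.03 and 84.9, 62.4 and 70.2 FPKM (log2 fold change 3.45 ± 0.19, adjusted p = 8.0e-09). Ldha, which makes lactate, was at 349, 279 and 308 FPKM in Co and 1608, 1341 and 1277 FPKM in Tom (log2 fold change 2.17 ± 0.27, adjusted p = 1.5e-05), with Pgk1 (2.06 ± 0.30) and Eno1 (1.71 ± 0.29) of the same pathway also higher. Groups did not overlap for any of the 5, and none was called against GFP, beside 96.2% of all genes without a call. Of 25 tested genes of sterol and fatty acid synthesis only 3 were called, beside 9.77% of all genes up-regulated. These were Msmo1, Sqle and Cyp51, at 1.44 ± 0.38, 1.36 ± 0.33 and 1.16 ± 0.31. Each call was lost without Co 810 or Co 828 (adjusted p = 0.011 to 0.036) and without 1 or more of the other 4 libraries. Of 18 tested interferon-stimulated genes, 3 were called up-regulated, beside 9.77% of all genes. Gbp3, a guanylate-binding GTPase, was at 0.675, 0.675 and 0.56 FPKM in Co, 7.15, 8.5 and 1.8 FPKM in Tom and 1.57, 1.14 and 0.688 FPKM in GFP (log2 fold change 1.88 ± 0.31, adjusted p = 1.8e-04), while Isg15 (log2 fold change 1.51 ± 0.29, adjusted p = 5.8e-04) and Oasl2 (log2 fold change 1.13 ± 0.22, adjusted p = 6.9e-04) were not called against GFP. Gbp3 was also higher than in GFP (log2 fold change 1.51 ± 0.31, adjusted p = 0.0045), a call lost without GFP 815, GFP 817, Tom 814 or Tom 815 (0.018 to 0.039) and with only the Tom and GFP libraries in the fit (0.17), and Oasl2 fell just under the fold threshold without Tom 814. The interferon count was 9 without Tom 817, in which Gbp3, Isg15 and Oasl2 were lowest.

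Bulge markers fell in Tom cells. Of 26 tested, 14 were down-regulated, beside 5.18% of all genes (median log2 fold change -1.06). The retinaldehyde dehydrogenase gene Aldh1a3 was the 1 up-regulated member. Lhx2, a transcription factor that maintains the bulge, was at 165, 102 and 109 FPKM in Co and 17.6, 26.4 and 30.2 FPKM in Tom (log2 fold change -2.29 ± 0.26, adjusted p = 5.1e-06). Lgr5, the R-spondin receptor of follicle stem cells, was at 143, 175 and 156 FPKM in Co and 26.7, 35.1 and 71.4 FPKM in Tom (log2 fold change -1.93 ± 0.29, adjusted p = 6.9e-05). Angptl7 was at 1361, 546 and 878 FPKM in Co and 90.3, 126 and 253 FPKM in Tom (log2 fold change -2.60 ± 0.38, adjusted p = 6.3e-05). In each of these the Tom libraries lay below Co, lowest in 814 and highest in 817. Bmp6, a quiescence signal, was at 8.2, 14.3 and 8.7 and 0.928, 1.56 and 2.94 FPKM (log2 fold change -2.04 ± 0.26, adjusted p = 1.4e-05), Foxc1 at 19.8, 19.5 and 22.6 and 8.09, 7.64 and 9.69 FPKM (log2 fold change -1.20 ± 0.18, adjusted p = 8.7e-05), and Sox9 at 94.6, 72.3 and 72.3 and 18.2, 31.1 and 58.2 FPKM (log2 fold change -1.27 ± 0.30, adjusted p = 0.0029). Nfatc1 was at 58.2, 75.2 and 62.1 FPKM in Co and 20.5, 35.3 and 52.3 FPKM in Tom, lower without overlap but under the fold threshold (log2 fold change -0.92 ± 0.28, adjusted p = 0.015), and it passed without Tom 817 (adjusted p = 0.0015). None of the 26 was called between Tom and GFP, beside 96.2% of all genes without a call in that comparison.

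The bulge calls depended on single libraries more than the mitosis calls did. Down-regulated members numbered 7 without Tom 814, 9 without Tom 815 or Co 810, 17 without Tom 817 and 7 with only the Tom and Co libraries in the fit. Sox9 lost its call without Co 810, Tom 814 or Tom 815 (adjusted p = 0.015, 0.015 and 0.011). Cd34 lost it without any 1 of the 6 libraries (adjusted p = 0.012 to 0.026), as did Aldh1a3 (0.017 to 0.031). Levels of Cd34 are in part set by the sort. Of 20 tested basal keratinocyte markers, 1 rose and 1 fell, beside 9.77% and 5.18% of all genes. Grhl3 rose (log2 fold change 1.86 ± 0.34, adjusted p = 4.7e-04) and the hemidesmosome gene Dst fell (log2 fold change -1.46 ± 0.34, adjusted p = 0.0026). Dst lost its call without Co 810 or Tom 814 (adjusted p = 0.011 and 0.016). Krt14 was at 6787, 5704 and 6439 FPKM in Tom and 2085, 2479 and 2292 FPKM in Co, with a wide SE (1.46 ± 3.14) in a fit where it was listed at 0 in b-KC Tom 814 and 817. Without Tom 817, 7 of the 20 basal markers were down-regulated.

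Among the largest falls were Cck, Grem1 and Chat, genes that HF-SC Co held at levels well above b-KC Co. Cck, which encodes the peptide cholecystokinin, was at 27.2, 21.2 and 27 FPKM in Co and 0.437, 1.43 and 1.4 FPKM in Tom (log2 fold change -3.67 ± 0.17, adjusted p = 1.7e-09). The BMP antagonist Grem1 was at 99.8, 93.2 and 86.6 FPKM in Co and 8.15, 9.61 and 10.6 FPKM in Tom (log2 fold change -3.18 ± 0.16, adjusted p = 2.8e-09), and Chat, which makes acetylcholine, was at 46.5, 43.9 and 50 and 3.05, 5.21 and 7.63 FPKM (log2 fold change -2.99 ± 0.20, adjusted p = 2.9e-08). The 3 genes had means of 0.29, 0.452 and 0.301 FPKM in b-KC Co. 6330403K07Rik was at 131, 161 and 155 FPKM in Co and 6.54, 5.97 and 17.1 FPKM in Tom (log2 fold change -3.92 ± 0.35, adjusted p = 5.6e-07), and the contractile gene Myl9 at 15.2, 14.7 and 21.6 and 1.51, 1.3 and 2.54 FPKM (log2 fold change -2.71 ± 0.19, adjusted p = 5.7e-08). Cryab, a small heat shock protein, was at 39.2, 35.1 and 36.3 FPKM in Co, 3.86, 4.11 and 3.56 FPKM in Tom and 8.99, 10 and 8.42 FPKM in GFP and called lower than in GFP as well (log2 fold change -1.06 ± 0.18, adjusted p = 8.8e-04), a call lost with only the Tom and GFP libraries in the fit (adjusted p = 0.016) and with a pseudocount of 0.1 FPKM (0.018). Ackr4, a chemokine scavenger, and the follicular keratin gene Krt24 fell by -2.83 ± 0.41 and -2.77 ± 0.58 on the log2 scale. Of the 660 down-regulated genes, 649 (98.3%, beside 96.2% of all genes) were not called against GFP, 10 were lower and 1, Fhl1, was higher, a gene named after its value was seen.

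Of 10 tested AP-1 genes, Fos, Atf3, Jund and Maff were down-regulated, Batf was up-regulated and the other 5 were not called. Over all genes, 5.18% were down-regulated and 9.77% up-regulated. Fos was at 2841, 2094 and 2403 FPKM in Co and 633, 762 and 932 FPKM in Tom (log2 fold change -1.66 ± 0.40, adjusted p = 0.0037), and Jund, the third Jun protein gene, at 145, 116 and 119.9 and 41.4, 47.4 and 56.1 FPKM (log2 fold change -1.38 ± 0.24, adjusted p = 3.2e-04). Atf3 (log2 fold change -1.44 ± 0.39, adjusted p = 0.0075) and Maff (log2 fold change -1.12 ± 0.15, adjusted p = 2.5e-05) are induced by stress in many cells. None of the 4 was called against GFP (adjusted p = 0.66, adjusted p = 0.89, adjusted p = 0.85 and adjusted p = 0.98). Fos lost its call without Co 810, Co 828, Tom 814 or Tom 815 (adjusted p = 0.013 to 0.018), and Atf3 without any 1 of these or Co 825 (0.013 to 0.032). Batf, a leukocyte AP-1 partner, was at 0.216, 0.237 and 0.0454 FPKM in Co and 3.08, 2.74 and 0.558 FPKM in Tom (log2 fold change 1.31 ± 0.30, adjusted p = 0.0023), and its call was lost without Co 828, Tom 814 or Tom 815 (0.012, 0.016 and 0.015).

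**Figure D3:**
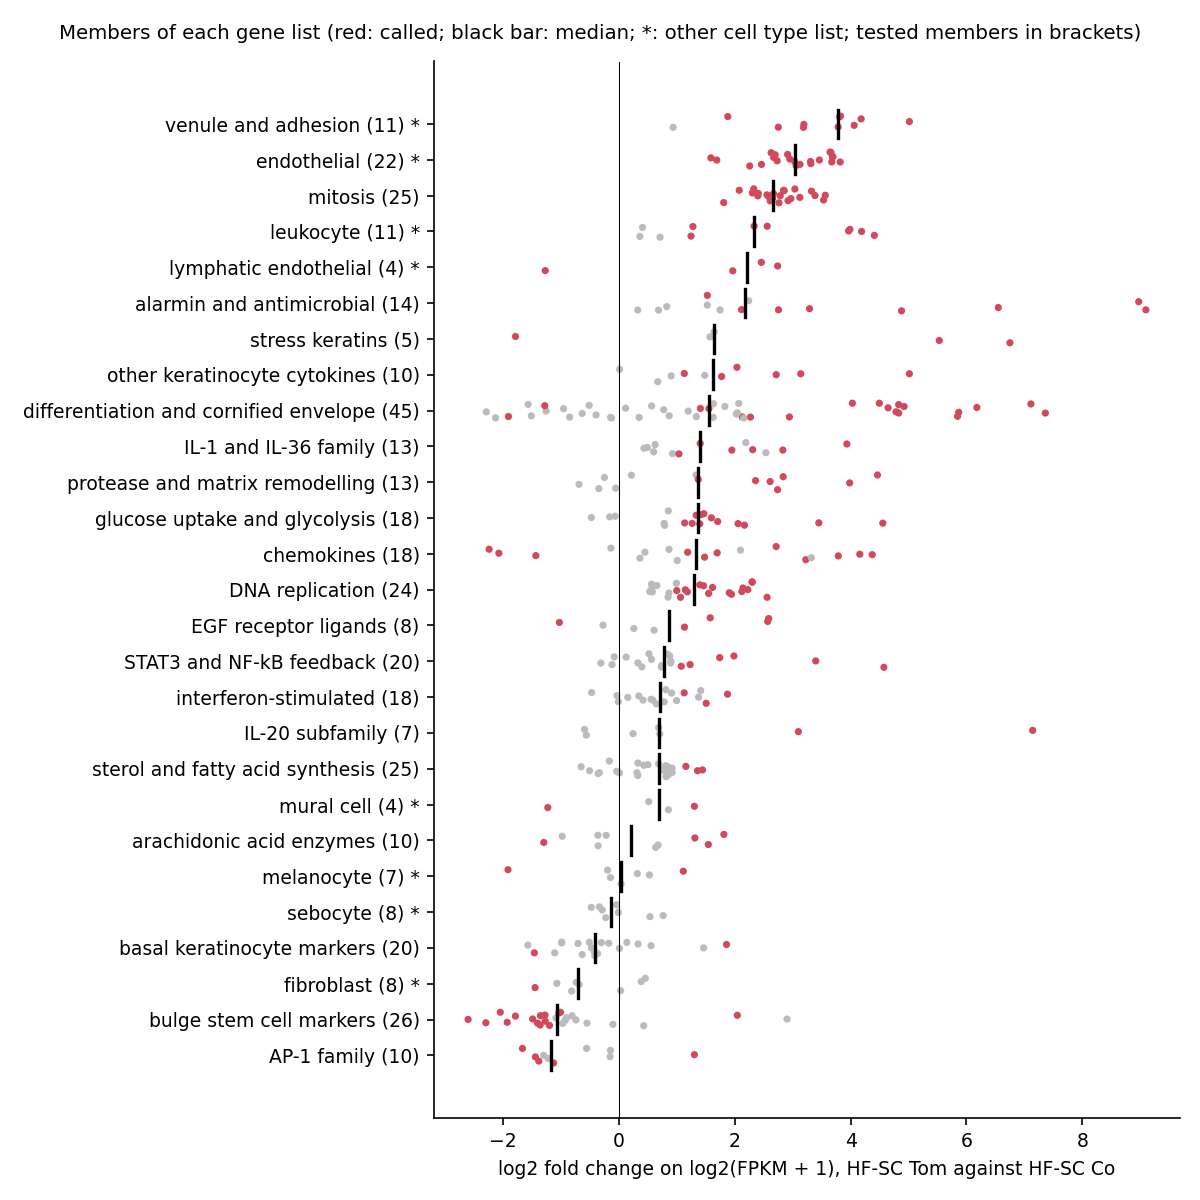
Log2 fold change of HF-SC Tom against HF-SC Co on log2(FPKM + 1) for the tested members of each gene list with 4 or more of them, with called genes in red, others in grey, the list median as a black bar and lists of other cell types marked by an asterisk. All endothelial and all mitosis members are called at positive values, and the bulge markers lie mostly below 0.

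Endothelial genes rose together and differed in level between mice. All 22 were up-regulated in Tom against Co without overlap (median log2 fold change 3.05), beside 9.77% of all genes up-regulated and 24.4% higher without overlap. Of the 22, 20 were also higher than in GFP, beside 3.35% of all genes. Plvap (chr8:74021653-74035668, minus strand, NCBI37), which forms the diaphragms of fenestrated vessels, was at 29.6, 33.4 and 18.9 FPKM in Co, 523, 505 and 222 FPKM in Tom and 7.0, 12 and 0.167 FPKM in GFP (log2 fold change 3.82 ± 0.62, adjusted p = 1.4e-04, and against GFP log2 fold change 6.30 ± 0.62, adjusted p = 3.5e-06). Pecam1, which encodes CD31, was at 10.6, 12.9 and 8.62 FPKM in Co, 209, 234 and 66.3 FPKM in Tom and 3.57, 4.52 and 0.547 FPKM in GFP (log2 fold change 3.69 ± 0.45, adjusted p = 9.9e-06). Emcn was at 11.3, 10.4 and 6.35 FPKM in Co and 273, 229 and 34.7 FPKM in Tom (log2 fold change 3.70 ± 0.63, adjusted p = 2.1e-04). In each gene Tom 817 was lowest, and the Co libraries lay between Tom and GFP. With only the Tom and GFP libraries in the fit, Plvap was not called against GFP (adjusted p = 0.014). The endothelial receptor tyrosine kinase gene Tie1 (log2 fold change 3.66 ± 0.34, adjusted p = 6.6e-07) and the TGF-beta co-receptor gene Eng (log2 fold change 3.68 ± 0.36, adjusted p = 1.4e-06) followed, and without Tom 817 the log2 fold change of Emcn was 4.63.

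The summed level of the 22 endothelial genes was 2041, 1946 and 601 FPKM in the 3 Tom libraries, 80.2 to 125 FPKM in Co, 14.7 to 57.4 FPKM in GFP, 8.55 to 21.8 FPKM in b-KC Tom and 4.97 to 7.70 FPKM in b-KC Co. No member was at 0 in all libraries of any HF-SC group. A mean of at least 1 FPKM was reached by 19 of the 22 in Co and by 8 in GFP, so most of these transcripts were in the Co libraries too, at a lower level. Which cells of a library held them cannot be told from bulk RNA. With only the Tom and GFP libraries in the fit, 10 of the 22 were higher than in GFP, and with mouse as a replicate block all 22 were. Against Co, 19 were called without Tom 814 or Tom 815 and 20 without Tom 817.

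Of 11 venule and leukocyte adhesion genes, 10 were up-regulated, beside 9.77% of all genes (median log2 fold change 3.79). Higher than in GFP were 9, beside 3.35% of all genes, or 4 with only the Tom and GFP libraries in the fit. Csf3 is counted in this list as well as among the cytokines above. Sele, which encodes E-selectin, was at 20.8, 21.9 and 12.2 FPKM in Co, 307, 428 and 142 FPKM in Tom and 4.12, 2.7 and 0.0867 FPKM in GFP (log2 fold change 3.83 ± 0.45, adjusted p = 7.4e-06, and against GFP log2 fold change 6.60 ± 0.45, adjusted p = 7.1e-08). P-selectin, Selp, was at 20.3, 17.9 and 9.56 FPKM in Co, 296, 377 and 176 FPKM in Tom and 4.08, 3.83 and 0.0979 FPKM in GFP (log2 fold change 4.06 ± 0.45, adjusted p = 4.2e-06). Vcam1 was at 1.56, 2.06 and 1.39 FPKM in Co and 76.1, 91.7 and 14.7 FPKM in Tom (log2 fold change 4.18 ± 0.45, adjusted p = 2.9e-06), and its log2 fold change was 4.99 without Tom 817. Tom 817 was the lowest of the Tom libraries in all 3, and no library of Co or GFP reached any Tom library. Lrg1, a secreted glycoprotein of inflamed vessels, was at 25, 27.3 and 16 FPKM in Co, 452, 375 and 201 FPKM in Tom and 56.7, 59 and 37.8 FPKM in GFP, above Co (log2 fold change 3.81 ± 0.72, adjusted p = 5.3e-04) but not called against GFP (adjusted p = 0.028).

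**Figure D4:**
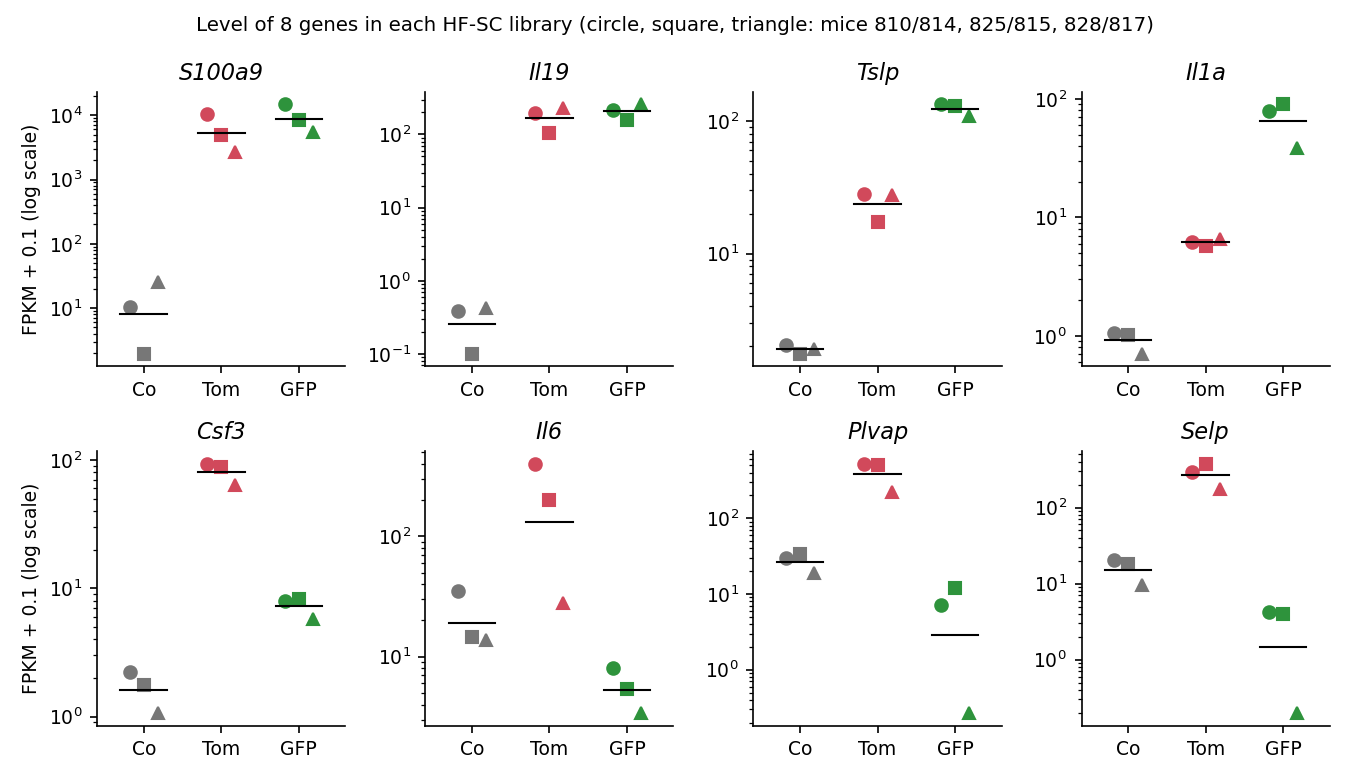
FPKM + 0.1 on a log axis for 8 genes in each HF-SC library, with Co in grey, Tom in red and GFP in green, circles for mice 810 and 814, squares for 825 and 815, triangles for 828 and 817, and a line at the geometric mean of the group. S100a9 and Il19 overlap between Tom and GFP, Tslp and Il1a are higher in GFP, and Csf3, Plvap and Selp are highest in Tom, as is Il6 except in mouse 817.

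Csf3 and Il6 were the cytokine genes called higher in Tom than in GFP. Csf3, the granulocyte growth factor G-CSF, was at 2.11, 1.65 and 0.963 FPKM in Co, 93.3, 88 and 64.2 FPKM in Tom and 7.89, 8.19 and 5.62 FPKM in GFP (log2 fold change 5.02 ± 0.33, adjusted p = 2.9e-08, and against GFP log2 fold change 3.33 ± 0.33, adjusted p = 4.2e-06). It was also up-regulated in b-KC Tom, at 3.18, 3.91 and 3.74 FPKM against 0, 0.162 and 0.252 FPKM in b-KC Co (log2 fold change 2.02 ± 0.33, adjusted p = 2.1e-04). Il6 was at 35.1, 14.4 and 13.8 FPKM in Co, 401, 200.1 and 27.8 FPKM in Tom and 7.91, 5.3 and 3.29 FPKM in GFP (log2 fold change 2.72 ± 0.69, adjusted p = 0.005, and against GFP log2 fold change 4.41 ± 0.69, adjusted p = 4.0e-04). Il6 in Tom 817 overlapped with Co, and Csf3 in Tom 817 lay above Co and GFP. Both genes went down from Tom 814 to 815 to 817, as did the endothelial sum. The same order held for the sum of the alarmin list (34040, 13620 and 6980 FPKM), so it is not particular to endothelial genes. Il6 lost its call against Co without Co 825, Co 828, Tom 814 or Tom 815 (adjusted p = 0.022 to 0.031), and its log2 fold change ran from 1.92 without Tom 814 to 3.82 without Tom 817. With only the libraries of the groups compared in the fit, Il6 was called neither against Co (adjusted p = 0.057) nor against GFP (0.051). The histamine-forming enzyme gene Hdc was at 0.854, 1.34 and 0.992 FPKM in Co, 47.6, 51.7 and 36 FPKM in Tom and 2.63, 1.4 and 1.65 FPKM in GFP (log2 fold change 4.47 ± 0.17, adjusted p = 2.6e-10, and against GFP log2 fold change 4.00 ± 0.17, adjusted p = 7.0e-10). Whether endothelial RNA supplied the Tom values of Csf3, Il6 and Hdc was not tested.

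The 353 genes higher in Tom than in both Co and GFP and the 893 genes higher than Co alone are set side by side here as a description, with no test. Genes high in HF-SC Tom alone could pass the filter on low levels through these 3 libraries, so low levels elsewhere are in part built into the 353. A mean of at least 1 FPKM in b-KC Tom was reached by 93 of the 353 (26.3%) and 853 of the 893 (95.5%), beside 86.2% of all genes tested, and in b-KC Co by 88 (24.9%) and 750 (84.0%), beside 87.7%. The ratios and the order of the Tom libraries that follow use the values that made the calls. In the Tom libraries of mice 814, 815 and 817, the median ratio to the Co mean was 11.3, 11.2 and 3.67 in the 353, 19.3, 18.5 and 5.51 in the endothelial list, and 4.52, 4.28 and 4.03 in the 893. Tom 817 was the lowest of the 3 Tom libraries in 342 of the 353 genes (96.9%), in 22 of 22 endothelial genes and in 476 of the 893 (53.3%), against 5913 of all 12751 genes (46.4%). The part of endothelial RNA in the 353 was not tested. The 353 became 200 without Tom 814 and 194 without Tom 815.

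Of the 1246 up-regulated genes, 484 (38.8%) were also up-regulated in b-KC Tom against b-KC Co, where 881 of 12751 genes (6.91%) rose and 992 (7.78%) fell. These were 472 of the 893 (52.9%) and 12 of the 353 (3.40%). The 12, which included Csf3, were Anxa3, Chst7, Csf3, Elk3, Fscn1, Gsta4, Pdia5, Plaur, Ppic, Scarb1, Sh2b2 and Tinagl1, of which all but Csf3 and Plaur were named after their values were seen. The b-KC libraries came from the same mice, so these counts are not independent of the HF-SC comparison, and the limit of the filter given above holds for them too.

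Leukocyte genes rose in part, the antigen-presentation genes Cd74, H2-Aa and H2-Ab1 among them. Of 24 listed, 22 were in the table and 11 passed the filter. Of these, 8 were up-regulated (median log2 fold change 2.34), beside 9.77% of all genes. Members near 0 in Co could pass only through libraries in which they were high, so this share is in part set by the filter. The invariant chain gene Cd74 was at 2.75, 6.21 and 5.45 FPKM in Co, 106, 191 and 81 FPKM in Tom and 109.8, 144 and 123 FPKM in GFP (log2 fold change 4.41 ± 0.45, adjusted p = 2.1e-06), and the MHC class II gene H2-Aa at 0.867, 1.7 and 1.73, 50.2, 67.4 and 22.9 and 29.7, 34.5 and 40.3 FPKM, respectively. Tom and GFP overlapped in both, and neither Cd74 nor H2-Aa nor H2-Ab1 was called between them. Ptprc, which encodes CD45, was at 0.152, 0.0735 and 0.539 FPKM in Tom and 0, 0.0414 and 0.0158 FPKM in Co, below the filter, with its highest Tom level in 817. Cd14 was at 2.77, 1.72 and 1.59 FPKM in Co, 90.2, 79.4 and 13.5 FPKM in Tom and 3.68, 3.01 and 12.4 FPKM in GFP (log2 fold change 3.99 ± 0.53, adjusted p = 2.6e-05, and against GFP log2 fold change 2.91 ± 0.53, adjusted p = 0.0018). Among the Tom libraries it was lowest in 817, as were the endothelial genes but also S100a8, S100a9, Lcn2 and Defb3, and its log2 fold change was 4.84 without Tom 817. Against GFP its call was lost without GFP 814, GFP 815, Tom 814 or Tom 815 (adjusted p = 0.012 to 0.019) and with only the Tom and GFP libraries in the fit (0.12). The summed level of the listed leukocyte genes was 13.0 to 19.6 FPKM in Co, 186 to 456 FPKM in Tom and 215 to 278 FPKM in GFP.

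Of 4 tested lymphatic genes, Lyve1, Pdpn and Mmrn1 rose and Tbx1, which bulge cells also express, fell. Below the filter, Flt4, the VEGF receptor of lymphatic vessels, was at 0.0752, 0.202 and 0.162 FPKM in Co and 1.79, 4.84 and 0.545 FPKM in Tom. The lymphatic transcription factor gene Prox1 was at 0.118, 0.285 and 0.0794 FPKM in Co and 1.37, 2.7 and 0.328 FPKM in Tom, and Reln was at 0.025, 0.0778 and 0.0667 FPKM in Co and 0.729, 1.73 and 0.0365 FPKM in Tom. For all 3 the level in Tom 814 and 815 was above that of every Co library, and that in Tom 817 was the lowest of the Tom libraries. Lyve1 was at 0.374, 0.452 and 0.252 FPKM in Co and 9.76, 24.7 and 1.71 FPKM in Tom (log2 fold change 2.74 ± 0.50, adjusted p = 4.0e-04), highest in 815 and lowest in 817, with log2 fold changes of 1.99 without Tom 815 and 3.61 without Tom 817. Mmrn1 lost its call without any 1 library but Tom 817 (adjusted p = 0.014 to 0.041), and its log2 fold change was 1.22 without Tom 815 and 2.86 without Tom 817. Of 4 tested mural cell genes Tagln rose (log2 fold change 1.31 ± 0.33, adjusted p = 0.0045) and Cspg4, also a follicle gene, fell (log2 fold change -1.22 ± 0.34, adjusted p = 0.0094), and the pericyte genes Rgs5 and Pdgfrb stayed below the filter. Kcnj8 of the same list, also below the filter, was at 0, 0 and 0.0563 FPKM in Co, 1.08, 0.956 and 0.0709 FPKM in Tom and 0.0205, 0.0612 and 0.0192 FPKM in GFP. Tagln lost its call without Co 825, Co 828, Tom 814 or Tom 815 (adjusted p = 0.014 to 0.029), and Cspg4 without any 1 library but Tom 817 (0.020 to 0.058). Of 8 fibroblast genes only Clec3b was called, beside 5.18% of all genes down-regulated, and it fell (log2 fold change -1.44 ± 0.21, adjusted p = 6.5e-05). Of 7 melanocyte genes Kit rose (log2 fold change 1.11 ± 0.27, adjusted p = 0.0034) and Mitf fell (log2 fold change -1.91 ± 0.18, adjusted p = 1.1e-06), and Kit lost its call without Co 810, Co 828, Tom 814 or Tom 815 (adjusted p = 0.012 to 0.019). No gene was called among 8 sebocyte, 2 Schwann cell, 1 skeletal muscle and 3 red blood cell genes tested.

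By a test of the difference itself, 684 genes (5.36%) had a higher Co to Tom change in bulge cells than in basal cells and 190 (1.49%) a lower one. For 22 of the 25 mitosis genes the difference was positive and called, and no mitosis gene went the other way. For Cdc20 the mean in b-KC Co was 50.2 FPKM, above the 6.07 FPKM of HF-SC Co, and it was 167 FPKM in b-KC Tom and 72.9 FPKM in HF-SC Tom. The endothelial list had 16 members with a larger change in HF-SCs and none with a smaller one. Among genes called by this test, the 5 with the largest positive difference were Tm4sf1 (5.27 ± 0.75), 8430408G22Rik (5.09 ± 0.60), Ctla2a (4.54 ± 0.76), Spns2 (4.31 ± 0.62) and Hdc (4.30 ± 0.24), all of them also above the GFP cells by the call rule. With only the Tom and GFP libraries in the fit, the calls against GFP of Tm4sf1, 8430408G22Rik, Ctla2a and Spns2 were lost (adjusted p = 0.017 to 0.025). Tm4sf1 was at 333, 252 and 39.4 FPKM and Ctla2a at 382, 220.4 and 40.6 FPKM in HF-SC Tom, each lowest in 817, and against Co their log2 fold changes were 4.35 and 5.6 without Tom 817. That of 8430408G22Rik was 4.37 without Tom 817, and that of Ctla2a 4.00 without Tom 814.

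The 5 largest negative differences among called genes were in Cck (-3.31 ± 0.25), Ednra (-3.23 ± 0.57), Alox8 (-2.90 ± 0.36), H2-DMb1 (-2.72 ± 0.45) and Grem1 (-2.72 ± 0.23). Ednra, the endothelin receptor, fell in HF-SC Tom to 11, 13.4 and 21.8 FPKM from 52.4, 38.5 and 47.3 FPKM and rose in b-KC Tom to 16.3, 13.6 and 4.7 FPKM from 2.92, 2.47 and 2.27 FPKM. Alox8 rose in both, from 4.08, 6.26 and 7.42 to 16, 17.8 and 25.8 FPKM in HF-SCs and from 0.75, 0.904 and 1.23 to 49, 50.9 and 32 FPKM in b-KCs. The MHC class II accessory gene H2-DMb1 was at 8.8, 10.4 and 7.16 FPKM in HF-SC Tom and 12.8, 11.4 and 15 FPKM in HF-SC Co, and rose in b-KC Tom to 18.2, 27.4 and 8.42 FPKM from 1.61, 3.23 and 3.85 FPKM. Cck and Grem1 were at means of 0 and 0.0494 FPKM in b-KC Tom and below 1 FPKM in b-KC Co. With a pseudocount of 0.1 FPKM the difference of Grem1 was -1.43 and not called (adjusted p = 0.043). Against Co in HF-SCs, Ednra lost its call without any 1 library but Tom 817 (adjusted p = 0.011 to 0.029).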

How the data were processed

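RNA of sorted cells (4 to 10 ng) was amplified with SMART-Seq v4, made into unstranded Nextera XT libraries with 12 PCR cycles and sequenced on an Illumina HiSeq as 51-base single reads. The authors aligned reads to mouse NCBI37/mm9 with TopHat 2.0.10 and Bowtie 1.0.0, allowing 20 hits per read, and deposited 1 table of FPKM values from Cufflinks 2.2.1 for the 18 libraries. The submitters' notes also name GRCm38 and mm10, without a role. Here, genes that reached 1 FPKM in 3 or more libraries (12751 of 23951) were fitted on log2(FPKM + 1) with limma 3.58.1 (R 4.3.3), with 1 mean for each of 6 groups, trended empirical Bayes variances and no block. The fit was tested on simulated data.

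The genes and lists were chosen with earlier results of these data known. Named were up to 5 called members of each list with the largest changes, the 10 largest changes in each direction, all tested cytokines, called members against a list's direction, fixed markers, Jun and Junb, and the 5 largest interaction terms each way. Each library is 1 mouse. Replicate numbers in the sample titles were taken as mouse numbers, by which Tom and Co share no mouse. Deviations of Tom and GFP cells of the same mouse from their group means had r = 0.591, 0.084 and 0.435 for 814, 815 and 817, against -0.586 to 0.373 between mice, the highest for Tom 815 with GFP 814. Deviations from a mean of 3 libraries are bound to sum to 0, so these values do not settle the pairing. Flg, Ly6g and Trdc were not analysed here. Promoters are from RefSeq (GRCm38.p6).

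FPKM values carry no counts, so no count test was run. Of low values, 76.8% to 82.1% lay within 0.1 of a whole read, and read floors cover counting error only.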

Additional observations from a re-analysis of the deposited data

Results flagged for a closer look

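Changes from Co to Tom that differed between HF-SCs and b-KCs by the interaction test of limma were set apart for a second look, 684 genes with a higher and 190 with a lower change in HF-SCs. Among the named genes with a higher change, the difference on the log2 scale was 5.27 for Tm4sf1, 5.09 for 8430408G22Rik, 4.54 for Ctla2a, 4.31 for Spns2 and 4.30 for Hdc. The lower changes were -3.31 for Cck, -3.23 for Ednra, -2.90 for Alox8, -2.72 for H2-DMb1 and -2.72 for Grem1. Groups of 3 libraries are too small for a check of single outlying values.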

How the results depend on the processing

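Counts of called genes stayed within 1.5 times of their value under a pseudocount of 0.1 FPKM, no filter on low values, no variance trend, libraries rescaled by their median ratio and exact zeros as missing. With a log2 fold change of at least 2 in size, 460 genes were higher and 61 lower in Tom against Co, 240 and 12 against GFP, and 223 and 29 by the interaction. With only the libraries compared in the fit, Tom against GFP gave 77 higher and 9 lower genes. With mouse as a replicate block, 131 genes in place of 62 were lower in Tom than in GFP, 472 were higher, and Il1f6 and Il23a became called against Co. The other 155 named genes followed against Co, the 34 called against GFP and the 10 named for the interaction kept their side of the threshold, and gains of other named genes against GFP or by the interaction were not looked for. Leaving out 1 library at a time gave 1002 to 1398 higher and 515 to 890 lower genes against Co, 259 to 521 and 23 to 177 against GFP, 451 to 806 and 117 to 256 by the interaction, and split the up-regulated genes into 194 to 399 also higher than GFP and 785 to 999 not higher. Leaving out all libraries of mouse 817, chosen after seeing the data, gave 401 genes lower than GFP, and 1097 higher and 368 lower by the interaction. Against GFP, genes higher numbered 274 without Tom 814 and 259 without Tom 815, and genes lower 23 without Tom 814, 25 without Tom 815, 177 without Tom 817, 32 without GFP 814, 26 without GFP 815 and 157 without GFP 817. By the interaction, 451 genes were higher without Tom 815 and 117 lower without Co 828. The sign turned for Krt15 (-1.59 with zeros as missing or without Co 828, in a range of -1.59 to 5.17 without 1 library) and Il12b (0.00 without Tom 814 to 0.02 without Tom 815). Of 134 called named genes, 17 moved by over 1.5-fold without Tom 817, 6 without Tom 814, 3 without Tom 815, and 2 each without Co 825 and Co 828. The cause of these moves was not tested. With 3 mice a group and unknown read totals, genes near 1 FPKM limit what can be seen.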
